A study of Homo sapiens with 4 samples.

Results

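The G1 cyclins, CDKs and CDK inhibitors described here are 10 genes, CCND1, CCND2, CCND3, CCNE1, CCNE2, CDK4, CDK6, CDKN1A, CDKN1C and CDKN2B, chosen by name. They were read by 11 of the 34127 gene probes of the array, every probe whose transcript belongs to one of them. All 11 probes lay well above background on all 4 arrays, so all 10 genes were among the 19540 genes tested.

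D-type cyclins bind CDK4 and CDK6 in early G1 and start the phosphorylation of the retinoblastoma protein, which releases E2F factors. E2F factors then drive transcription of the E-type cyclins, which activate CDK2 at the entry to S phase. Inhibitors of the INK4 family, such as p15 from CDKN2B, bind CDK4 and CDK6 alone, whereas p21 from CDKN1A and p57 from CDKN1C bind cyclin-CDK complexes more broadly. Squamous carcinomas of the head and neck often carry extra copies of CCND1 and losses at the locus of CDKN2A and CDKN2B.

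Ca9-22 cells are an established line derived from a human gingival squamous carcinoma. The 4 arrays, all on 1 slide, compared 2 negative control cultures with 2 cultures silenced for KPNA4, a karyopherin alpha that carries cargo proteins into the nucleus. The labels give no genotype beyond control and knockdown, name siRNA as the agent and place the harvest 3 days after transfection, while the study's text describes short hairpin RNAs for this line. They call the cultures biological replicates, and the p-values below measure the spread between these cultures only. The question was how loss of KPNA4 altered gene expression in these cells, here in the machinery that opens S phase.

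KPNA4 itself stood at 4.02 and 4.03 on the control arrays and at 2.36 and 2.05 on the knockdown arrays, as log2 processed signal minus that of the array's own 75th percentile, the scale of every level below. It fell by 1.82 on the log2 scale (SE 0.12, adjusted p = 0.0018). That percentile was 1466 and 1381 in the controls and 1938 and 2096 in the knockdown, so the knockdown arrays were brighter as a whole. All 14 keratinocyte markers were measured, 9 of them higher and 4 lower. Their summed scaled signal was 298.7 and 298.2 in the controls and 249.9 and 240.9 in the knockdown. SFN, among the 4 lower, was the brightest of them and weighed most in this sum. Of 10 fibroblast markers 6 were kept, 3 higher and 2 lower, with COL3A1, COL6A3, PDGFRA and THY1 below the background criterion on every array. The 6 summed to 0.231 and 0.233 in the controls and to 0.389 and 0.417 in the knockdown. Of 6 endothelial markers 2 were kept, both lower, with PECAM1, KDR and TEK below that criterion on every array. The 2 summed to 0.0847 and 0.0918 in the controls and to 0.0643 and 0.0608 in the knockdown. The 5 leukocyte markers with a probe were measured, 1 higher and 4 lower. Their sum was 4.63 and 4.67 in the controls and 6.36 and 6.03 in the knockdown. CD14, the 1 higher, was the brightest of them and weighed most in this sum. The part of any marker list in the results below was not tested. Among 84 probes of genes whose presence depends on the genome of a cell line, 8 passed the background criterion on both knockdown arrays and on neither control array, and 0 the other way round, against 1.15% and 0.826% of all probes. A difference between the cultures other than KPNA4 and the knockdown of KPNA4 cannot be told apart with these groups.

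Of the 10 genes, 2 were higher after KPNA4 knockdown (CDKN1C and CDKN2B), 4 were lower (CCND2, CCNE1, CCNE2 and CDKN1A) and 4 did not pass the test (CCND1, CCND3, CDK4 and CDK6), with limma and Benjamini-Hochberg adjustment over all genes at 0.05. Over all genes tested 20.3% were higher and 29.5% lower, so neither count of these genes stands far from the background. By probe, 2 of the 11 were higher and 5 lower, against 20.0% and 28.4% of all 24185 probes tested. The median log2 fold change of the 10 genes was 0.03, and that of all genes tested was -0.10.

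**Figure D1:**
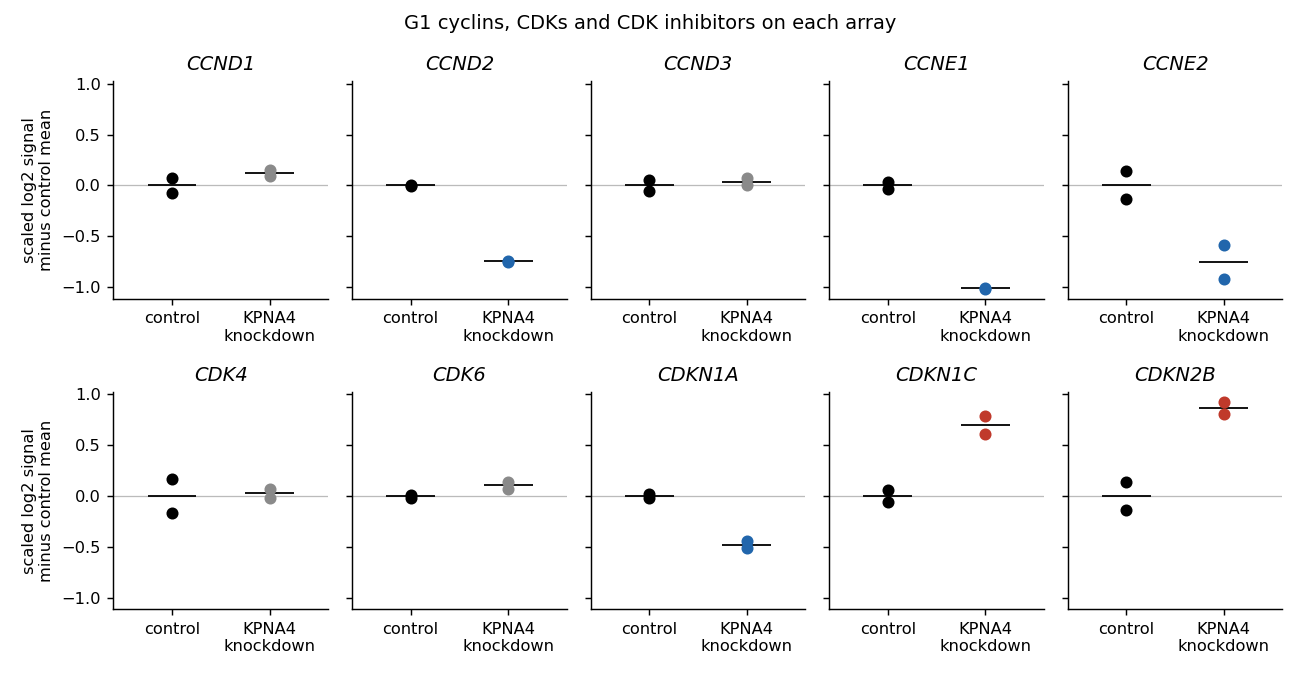
Scaled log2 signal of each gene on each array minus the mean of its control arrays (y axis, log2 units), with control arrays in black and KPNA4 knockdown arrays in red where the gene was called higher, blue where lower and gray where not called. Short lines mark the mean of 2 arrays. The knockdown arrays of CCND2, CCNE1, CCNE2 and CDKN1A lie below both controls, and those of CDKN1C and CDKN2B above.

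The D-type cyclins did not move together. CCND2, which encodes cyclin D2, stood at 4.65 and 4.66 on the control arrays and at 3.92 and 3.91 on the knockdown arrays. Both knockdown arrays lay below both controls by far more than either pair differed. Its signal fell by 0.75 (SE 0.06, adjusted p = 0.0023), which is 1.68-fold, and 7.40% of all genes tested had a lower log2 fold change. In bulk RNA, fewer cells with a transcript and less of it per cell cannot be told apart, for this gene and for all others here. CCND2 fell less, by 0.24, and missed the threshold without scaling between arrays (adjusted p = 0.0857).

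CCND1, the cyclin D1 gene, was read by 1 probe printed on 10 spots of each array, of which 8 or 9 had no flag. It stood at 0.81 and 0.96 on the control arrays and at 0.98 and 1.04 on the knockdown arrays, with an SD over the spots of one array between 0.03 and 0.05. The knockdown arrays lay just above both controls, but the control arrays differed from each other by more than this gap. The log2 fold change was 0.12 (95% interval -0.09 to 0.34, adjusted p = 0.254).

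CCND3, which encodes cyclin D3, stood at 1.15 and 1.26 on the control arrays and at 1.21 and 1.28 on the knockdown arrays. The groups overlapped. The log2 fold change was 0.04 (95% interval -0.16 to 0.23, adjusted p = 0.687).

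Both E-type cyclins fell. CCNE1, which encodes cyclin E1, stood at 2.45 and 2.51 on the control arrays and at 1.46 and 1.47 on the knockdown arrays. The arrays of each group lay close together and the groups were far apart. CCNE1 fell by 1.01 (SE 0.06, 95% interval -1.18 to -0.85, adjusted p = 0.0015), or 2.02-fold. On this scale it was the 1 gene of the 10 past 2-fold, but its log2 fold change was -0.95 with quantile normalization and -0.98 without control replicate 2, both under 2-fold. Of all genes tested, 3.35% had a lower log2 fold change. CCNE1 was also called lower without any scaling between arrays, with a log2 fold change of -0.51.

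CCNE2, which encodes cyclin E2, was read by 2 probes. The brighter one stood at 1.86 and 1.58 on the control arrays and at 1.13 and 0.79 on the knockdown arrays. The dimmer one stood at -1.33 and -1.67 on the control arrays and at -2.09 and -2.07 on the knockdown arrays. In both probes the knockdown arrays lay below both controls, and the arrays of a group lay further apart than for CCNE1. The brighter probe fell by 0.75 (SE 0.16, adjusted p = 0.0243) and the dimmer by 0.58 (SE 0.13, adjusted p = 0.0265 over all probes). The call of CCNE2 was lost without scaling between arrays (adjusted p = 0.167), without the filter on dim probes (0.0620), without control replicate 1 (0.0843) and without knockdown replicate 2 (0.0735).

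CDK4, a catalytic partner of the D-type cyclins, stood at 3.11 and 3.45 on the control arrays and at 3.35 and 3.26 on the knockdown arrays. Both knockdown values lay between the controls. The log2 fold change was 0.03 (95% interval -0.34 to 0.40, adjusted p = 0.877), and the controls were the more variable pair.

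CDK6, the other partner, stood at 2.39 and 2.36 on the control arrays and at 2.45 and 2.52 on the knockdown arrays. The groups did not overlap, by a narrow gap. The log2 fold change was 0.11 (95% interval -0.06 to 0.28, adjusted p = 0.214). These intervals leave room for a change of CDK4 or CDK6 of the size named in them.

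Of the 3 inhibitors, CDKN2B and CDKN1C rose, and CDKN1A was called lower with a call that rested on the processing. CDKN2B, which encodes p15, stood at -6.44 and -6.16 on the control arrays and at -5.37 and -5.49 on the knockdown arrays. Both knockdown arrays lay above both controls. CDKN2B rose by 0.87 (SE 0.12, 95% interval 0.53 to 1.20, adjusted p = 0.0087), or 1.82-fold. The probe was dim, with processed signals of 16.9 and 19.4 in the controls and 47.0 and 46.5 in the knockdown.

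CDKN1C, which encodes p57 and is imprinted, stood at -3.12 and -3.01 on the control arrays and at -2.28 and -2.45 on the knockdown arrays. The groups did not overlap. CDKN1C rose by 0.70 (SE 0.09, 95% interval 0.45 to 0.95, adjusted p = 0.0077), or 1.62-fold. Its processed signal before scaling was 169 and 172 in the controls and 400.2 and 382 in the knockdown.

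CDKN1A, which encodes p21, stood at -4.66 and -4.62 on the control arrays and at -5.08 and -5.15 on the knockdown arrays. On this scale both knockdown arrays lay below both controls, and CDKN1A fell by 0.48 (SE 0.06, adjusted p = 0.0072), or 1.40-fold. Before scaling, its processed signal was 58.2 and 56.3 in the controls and 57.2 and 59.0 in the knockdown, so the groups did not part. Without scaling the log2 fold change was 0.02 (adjusted p = 0.873), and after normexp background correction it was 0.84 (adjusted p = 0.647). Leaving out knockdown replicate 2 also ended the call (adjusted p = 0.0551). The fall of CDKN1A was thus a fall relative to the other genes on the array, at -0.38 against the median of all genes with or without scaling, and of the alternatives run only normexp put it above that median, at 0.56.

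**Figure D2:**
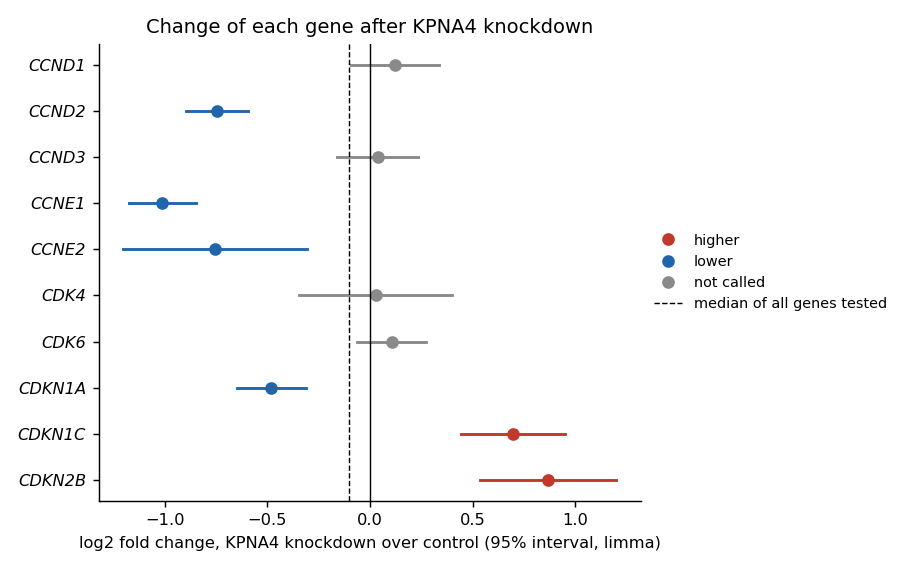
Log2 fold change of each gene, KPNA4 knockdown over control (x axis), with its 95% interval from limma, colored by call. The dashed line is the median of all genes tested at -0.10. The intervals of CCND1, CCND3, CDK4 and CDK6 cross 0, and that of CCNE1 runs from -1.18 to -0.85.

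Since the knockdown arrays were brighter, the scaling sets where zero lies. Without it the median log2 fold change of all genes moved from -0.10 to 0.40, 11256 genes were higher and 1046 lower, and 91.5% of calls were higher against 40.8% with it. CCND1, CCND3, CDK4 and CDK6 then passed the test as higher, with log2 fold changes of 0.62, 0.54, 0.53 and 0.61. Relative to the median of all genes, which no shift of a whole array can move, CCNE1 stood at -0.91, CCNE2 at -0.65, CCND2 at -0.64 and CDKN1A at -0.38. On the same relative scale CDK4 stood at 0.13, CCND3 at 0.14, CDK6 at 0.21, CCND1 at 0.22, CDKN1C at 0.80 and CDKN2B at 0.97. After normexp background correction CDK4, CCND3, CDK6 and CCND1 lay below that median, at -0.47, -0.33, -0.41 and -0.25. CDK4 also lay below it without control replicate 1, at -0.04.

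**Figure D3:**
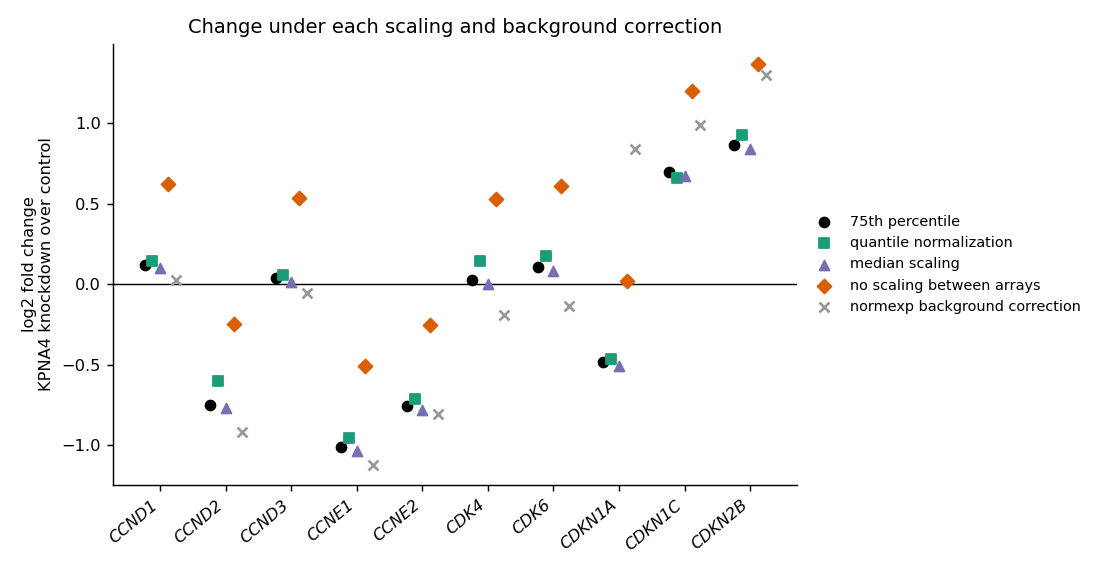
Log2 fold change of each gene, KPNA4 knockdown over control (y axis), under 4 ways of scaling the arrays and under normexp background correction. The percentile, quantile and median scalings lie close together for each gene, the values without scaling lie above them, and CDKN1A moves from -0.48 to 0.02 without scaling and to 0.84 with normexp.

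The 250 bases before the transcription start are shown for CCNE1, the gene that fell most, for CDKN2B, the gene that rose most, and for CDKN1A, the third inhibitor. They are from RefSeq (GRCh38.p14), on the strand of the gene, at chr19:29811741-29811990 (plus strand), chr9:22009306-22009555 (minus strand) and chr6:36678464-36678713 (plus strand). Capitals mark GC boxes, the letters GGGCGG on either strand, the core bound by Sp1-type factors.
CCNE1: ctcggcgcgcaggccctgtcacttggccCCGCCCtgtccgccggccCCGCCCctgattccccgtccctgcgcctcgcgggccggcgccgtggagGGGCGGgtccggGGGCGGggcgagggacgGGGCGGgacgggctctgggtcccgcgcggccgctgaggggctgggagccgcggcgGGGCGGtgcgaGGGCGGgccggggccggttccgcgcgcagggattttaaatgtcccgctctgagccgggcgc
CDKN2B: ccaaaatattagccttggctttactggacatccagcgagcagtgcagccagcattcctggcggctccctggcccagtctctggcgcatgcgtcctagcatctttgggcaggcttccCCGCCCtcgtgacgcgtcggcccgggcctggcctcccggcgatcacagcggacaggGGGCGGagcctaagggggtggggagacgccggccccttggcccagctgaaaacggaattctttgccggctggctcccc
CDKN1A: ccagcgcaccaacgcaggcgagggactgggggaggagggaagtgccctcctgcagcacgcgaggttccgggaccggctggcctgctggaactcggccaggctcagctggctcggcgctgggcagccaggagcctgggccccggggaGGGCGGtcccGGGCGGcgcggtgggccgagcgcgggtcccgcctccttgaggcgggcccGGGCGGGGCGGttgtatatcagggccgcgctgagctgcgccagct
The CCNE1 window held 7 GC boxes and 81.2% G and C, the CDKN2B window 2 and 66.4%, and the CDKN1A window 4 and 76.4%, with the last pair in the CDKN1A window sharing a base. A GC box stood in 42.6% of 35116 RefSeq promoter windows of this length. The E2F letters TTTCCCGC, TTTCGCGC, TTTGCCGC and TTTGGCGC, read on both strands, stood in 2.79% of them and in none of the 9 windows held for CCND3, CCNE1, CDK4, CDK6, CDKN1A and CDKN2B. The TATA letters TATAAA stood in 10.7% and in none of these 9. Only these exact letters in the 250 bases before the start were read, and most windows lack them. Their absence thus does not show that a promoter lacks E2F sites. No window was held for CCND1, CCND2 or CDKN1C, and CCNE2 was left out of this reading. These counts thus say nothing of those genes, CCNE2 included.

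Beyond these genes, 11 others of the G1 cyclin-CDK and inhibitor group were measured, and 1 was higher and 5 lower, with a median of -0.19. For this list and all lists below, the shares over all genes tested were 20.3% higher and 29.5% lower. CDKN2D, which encodes the INK4 protein p19, stood at 3.73 and 3.64 on the control arrays and at 2.74 and 2.72 on the knockdown arrays and fell by 0.95 (adjusted p = 0.0018). CDKN2A, which encodes p16 and ARF, stood at 3.75 and 3.86 against 3.04 and 3.01 and fell by 0.78 (adjusted p = 0.0033), while its dimmer probe gave 0.06 (adjusted p = 0.468 over all probes). The 2 CDKN2A probes thus gave different results, and the direction of CDKN2A was not settled.

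CDKN1B, which encodes p27, stood at 0.96 and 0.81 on the control arrays and at 1.25 and 1.27 on the knockdown arrays and rose by 0.38 (adjusted p = 0.0205), in both of its probes alike. Its call was lost without the filter on dim probes (adjusted p = 0.0510) and without either knockdown array (0.0896 and 0.104). CDKN2C, which encodes p18, fell by 0.44, and so did CCNH by 0.44 and CDK7 by 0.21, both parts of the kinase that activates CDKs, but the log2 fold changes of all 3 were above 0 without scaling, and all 3 calls were lost without either knockdown array. CDK7 also lost its call without either control array and with the replicate block (adjusted p = 0.0997). The third part, MNAT1, had a log2 fold change of 0.01. CDK2, the partner of cyclin E, had -0.01 (95% interval -0.19 to 0.16), CCNA2 -0.07, CDC37, a chaperone of CDK4, -0.07, and CDC25A, a phosphatase that activates CDK2, -0.19, none of them past the test.

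Downstream of the cyclins, 13 genes of the RB and E2F families were measured, of which 1 was higher and 3 lower (median -0.02). E2F7 and E2F8, repressor E2Fs, fell by 0.78 and 0.53, and E2F1, an activator that drives CCNE1, fell by 0.49 (adjusted p = 0.0059), although without scaling the calls of all 3 were lost, with log2 fold changes of -0.28, -0.03 and 0.01. Of 20 E2F targets of S phase entry, 9 were lower and 1 higher (median -0.24). UHRF1, a reader of hemimethylated DNA, fell by 0.62, CDT1, a replication licensing factor, by 0.60 and RRM2, a ribonucleotide reductase subunit, by 0.58. Lower calls made up 9 of 20 in this list, beside 29.5% over all genes, and the median was 0.27 without scaling. The call of UHRF1 was lost without any 1 of the arrays, and those of CDT1 and RRM2 without scaling. Before scaling, the processed signal of UHRF1 was 14685 and 11012 in the controls and 12544 and 10923 in the knockdown. Its groups thus overlapped before scaling.

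A list of 13 genes of ubiquitin-dependent protein turnover gave 5 higher and 3 lower (median 0.16). It holds ligase parts and their partners, but also USP28, a deubiquitinase, and PTTG1, which encodes securin, a substrate of the anaphase-promoting complex, and the lowest value of the list, -0.60, was that of PTTG1, named after its value was seen. CRYAB, a small heat shock protein that pairs with FBXO4, rose 2.83-fold, FBXO4, an F-box protein for cyclin D1, 1.71-fold and FBXW7, the F-box protein for cyclin E, 1.59-fold (adjusted p = 0.0077). FBXW7 stood at -0.41 and -0.61 on the control arrays and at 0.16 on both knockdown arrays.

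Of 21 p53 targets other than CDKN1A, 4 were higher and 9 lower (median -0.17). FAS, a death receptor, fell by 0.81, GADD45A, a stress response gene, by 0.80 and TNFRSF10B, another death receptor, by 0.55, and without scaling the calls of GADD45A (-0.30, adjusted p = 0.0621) and TNFRSF10B (-0.05, adjusted p = 0.728) were lost. Of 19 measured factors known to regulate the transcription of these genes, 6 were higher and 5 lower (median -0.04). FOXO1, which activates CDKN1B and other inhibitors, stood at -1.43 and -1.33 on the control arrays and at 0.38 and 0.37 on the knockdown arrays and rose by 1.75 (adjusted p = 6.7e-04). HES1, a repressor induced by Notch, rose by 1.04 and SMAD2, which carries TGF-beta signals, by 0.88. SMAD3, which carries the same signals, fell by 0.88 (adjusted p = 0.0018), the lowest value of the list, and SMAD4 had 0.07. These 2 were named after their values were seen.

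**Figure D4:**
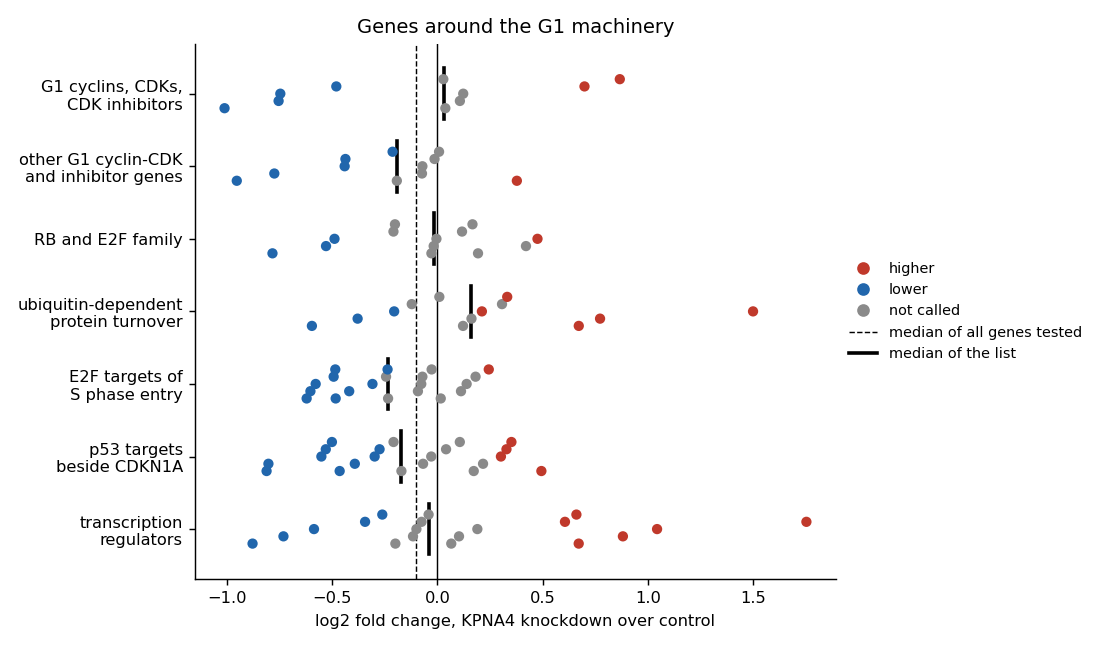
Log2 fold change, KPNA4 knockdown over control (x axis), of the 10 genes and of the genes of 6 related lists, 1 point per gene colored by call, with points spread vertically only for legibility. Thick bars are list medians, from -0.24 for the E2F targets to 0.16 for the protein turnover genes, and the dashed line is the median of all genes at -0.10.

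Selected genes near 3 of the genes were also read, with their order from RefSeq GRCh38.p14. They are picked lists and not every gene of a region. Near CDKN1C on chromosome 11, the list left out the genes from 3 to 10 places away on the side of H19. It also left out the gene between IGF2 and H19. Of the 6 listed genes measured near CDKN1C, 3 were higher and 2 lower. H19, an imprinted noncoding RNA 13 places away, stood at 2.78 and 2.92 on the control arrays and at 6.28 and 6.27 on the knockdown arrays and rose by 3.42 (adjusted p = 3.1e-04), or 10.7-fold. IGF2, an imprinted growth factor gene 11 places away, stood at -2.76 and -2.62 against 1.03 and 1.04 and rose by 3.73 (adjusted p = 3.0e-04), or 13.3-fold. Both rose by more than CDKN1C, and each pair of arrays lay close together.

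On the other side PHLDA2, an imprinted gene 2 places from CDKN1C, rose by 0.70 (adjusted p = 0.0030), NAP1L4, a histone chaperone gene 3 places away, had -0.07 and CARS1, a tRNA synthetase gene 4 places away, fell by 0.47. KCNQ1OT1, the next gene to CDKN1C on the side of H19 and the noncoding RNA whose expression silences CDKN1C on one parental chromosome, stood at -4.48 and -4.77 on the control arrays and at -5.23 and -5.86 on the knockdown arrays and fell by 0.92 (adjusted p = 0.0431). This call was weak: it was lost without control replicate 1, control replicate 2 or knockdown replicate 2. The log2 fold change was 0.89 after normexp (adjusted p = 0.647). Before scaling, the processed signal of KCNQ1OT1 was 65.7 and 50.5 in the controls and 51.6 and 36.0 in the knockdown, so the groups overlapped. CARS1 had 0.03 without scaling and lost its call without either knockdown array (adjusted p = 0.0516 and 0.0592).

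Around CDKN2B on chromosome 9, CDKN2A, 2 places away, gave the unequal probes described above, and DMRTA1, the next gene on the other side, rose by 0.60 (adjusted p = 0.0138, and 0.0652 without knockdown replicate 2). MTAP, a methionine salvage gene often lost together with this locus, stood at 0.82 and 0.76 on the control arrays and at 0.77 and 0.66 on the knockdown arrays, with a log2 fold change of -0.08 (95% interval -0.27 to 0.11), and KLHL9 had 0.16. CDKN2A and MTAP were well above background on all 4 arrays.

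Around CCND1 on chromosome 11, MYEOV, the next gene, rose by 0.95 (adjusted p = 0.0020) from -3.86 and -3.76 to -2.86 and -2.85. CTTN, the cortactin gene, and PPFIA1, a liprin gene, fell by 0.40 and 0.41 by their brighter probes, while their other probes gave -0.10 and 0.28, and the calls of both were lost with the mean over probes and without either knockdown array. FADD, a death receptor adaptor, had 0.10 and LTO1 0.21 (adjusted p = 0.0502), close to the value of CCND1. FGF3 had -0.77 at -5.39 and -6.27 on the knockdown arrays and SHANK2 had -0.14, neither past the test, although FGF3 passed it without knockdown replicate 1 (adjusted p = 0.0160).

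**Figure D5:**
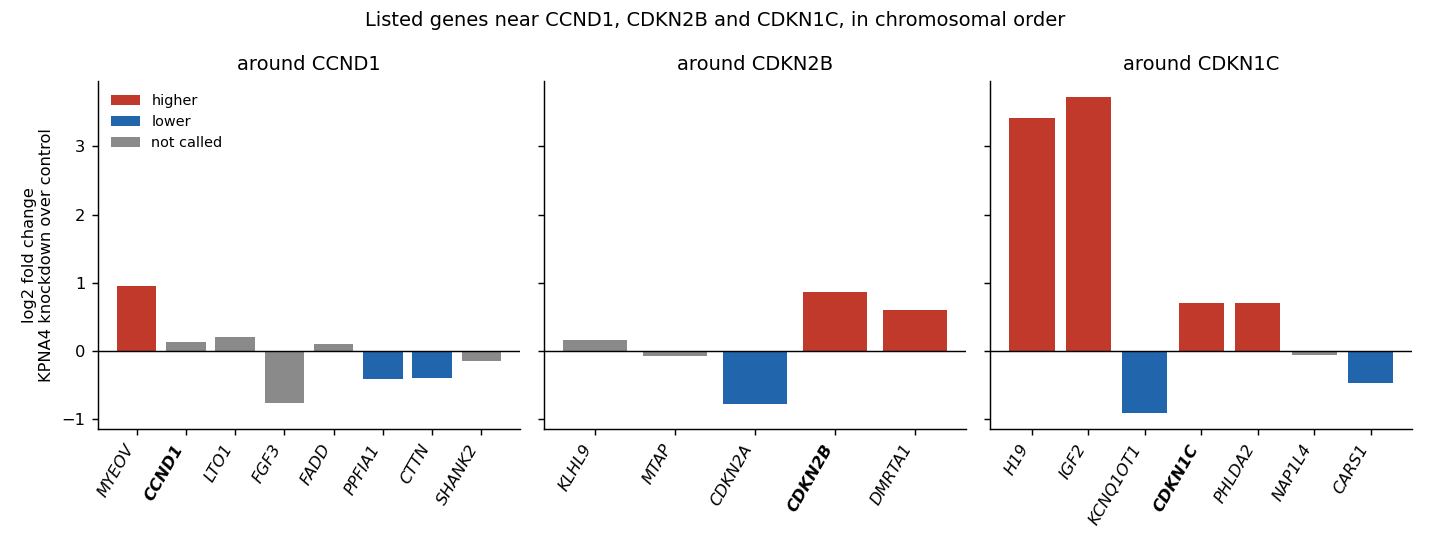
Log2 fold change, KPNA4 knockdown over control (y axis), of the listed and measured genes around CCND1, CDKN2B and CDKN1C in the order in which they lie on the chromosome, evenly spaced whatever their distance. Bars are colored by call, and H19 and IGF2 at 3.42 and 3.73 stand above CDKN1C at 0.70.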

How the data were processed

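RNA of 4 Ca9-22 cultures was hybridized by the authors to 1-color whole human genome arrays. The deposited processed signal intensity comes from Agilent Feature Extraction 11.0.1.1 with default settings, which subtracts background and detrends across the array without scaling between arrays. The deposited value table holds the ratio of that signal to each array's 75th percentile for 24209 probes and served as an alternative, as did the deposited median spot intensity with its local background.

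Flagged spots (333 to 355 of 43118 per array) were left out, none was saturated, and 70.2% to 71.0% of probes were well above background. The log2 signal was averaged over spots, and the 75th percentile was subtracted. Probes well above background on both arrays of a group and with a value on all 4 arrays were kept, and the brightest probe stood for a gene. RefSeq accessions (GRCh38.p14) named 25771 of 34127 probes. Groups followed the labels, and the test was limma 3.58.1 under R 4.3.3 (lmFit, eBayes, Benjamini-Hochberg, 0.05), and the procedure was tested on simulated data. A missed threshold does not show equal levels, and 2 arrays per group limit the precision.

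Genes named are the 10 genes, KPNA4, all other G1 cyclin-CDK and inhibitor genes, all genes listed near CCND1, CDKN2B and CDKN1C, and up to 3 called genes with the largest change from each other functional list. PTTG1, SMAD3 and SMAD4 were named beside these after their values were seen. The 10 genes and all lists were chosen with earlier results of these data known. CCNA1 and SLC22A18 had no matched probe, and MYCN, ANO1, FGF19, FGF4, CDKN2B-AS1 and KCNQ1 were below the filter. Alternatives were other scalings, normexp background correction (offset 50), the value table, other filters, the mean over probes, trend and robust options, a replicate block, each array left out and stricter thresholds.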

Additional observations from a re-analysis of the deposited data

How the results depend on the processing

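Quantile normalization, median scaling, the deposited value table, a filter on all 4 arrays, the mean over probes, and trend and robust options left all 10 genes on the same side of 0 and of the threshold. The arrays gave no sign that the replicate numbers pair the cultures (correlation of replicate differences between groups -0.03 over 19540 genes). With a replicate block 3262 genes were higher and 4637 lower, with the 10 genes still at 2 higher and 4 lower. CDK7 alone of the other named genes lost its call there (adjusted p = 0.0997).

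Genes higher numbered 11256 without scaling, 0 with normexp, 2133 at an adjusted p of 0.01, 1032 at 2-fold and 2152 to 3595 with an array left out, and genes lower 1046, 0, 2341, 630 and 2524 to 4743. Limma with normexp thus called 0 genes, with 1424 at an unadjusted p under 0.05; the cause was not tested. Of the 10 genes, 6, 0 and 0 were higher without scaling, with normexp and at 2-fold, and 1, 0 and 1 lower, with 2 to 4 lower when an array was left out. The lowest of these counts came without knockdown replicate 2, and that without knockdown replicate 1 gave 2206 higher and 3133 lower genes. KPNA4 had -1.94 with normexp (adjusted p = 0.554).

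The median of the 10 genes was 0.53 without scaling, -0.0922 with normexp and -0.0795 to 0.0914 with an array left out. That of all genes tested was 0.40, 0.28 and -0.108 to -0.0885. In the same order the medians were 0.31, -0.25 and -0.22 to -0.13 for the other G1 genes, 0.48, -0.14 and -0.0467 to 0.0370 for the RB and E2F families, 0.27, -0.42 and -0.26 to -0.18 for the E2F targets, 0.33, -0.0720 and -0.21 to -0.0537 for the p53 targets, and 0.46, 0.43 and -0.0592 to 0.0316 for the transcription regulators, and the protein turnover genes had 0.66 without scaling. With quantile normalization these medians were -0.0934 for the other G1 genes, 0.0473 for the RB and E2F families, -0.0829 for the E2F targets, -0.0480 for the p53 targets and 0.0379 for the regulators, and with the mean over probes the p53 targets had -0.25.

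Signs turned without scaling for CDKN1A (0.0215), CARS1 (0.0278), CCNA2 (0.43), CCNH (0.0611), CDC25A (0.31), CDC37 (0.43), CDK2 (0.49), CDK7 (0.29), CDKN2C (0.0648), CTTN (0.11), E2F1 (0.0129), MTAP (0.42), NAP1L4 (0.43), PPFIA1 (0.0904) and SHANK2 (0.36). They turned with normexp for CCND3 (-0.0532), CDK4 (-0.19), CDK6 (-0.13), CDKN1A (0.84), CDK2 (0.22), FADD (-0.17), FGF3 (0.97), KCNQ1OT1 (0.89), MNAT1 (-0.12) and SHANK2 (0.63), with quantile normalization for CCNA2 (0.0044) and with median scaling for MNAT1 (-0.0154). With an array left out CCND3 ranged from -0.0164 to 0.0912, CDK4 from -0.14 to 0.20, CDK2 from -0.0502 to 0.0223 and MNAT1 from -0.13 to 0.15. With normexp no named gene was called.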
